A study of Homo sapiens with 12 samples.

Results

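Lanosterol to cholesterol genes encode the enzymes that close squalene epoxide into lanosterol and then trim, reduce and rearrange that sterol into cholesterol. The genes examined were LSS, CYP51A1, TM7SF2, MSMO1, NSDHL, HSD17B7, EBP, SC5D and DHCR7, taken by gene symbol. All 9 were found once each among the 60662 genes of the deposited TPM table, and all 9 passed the filter on low values (0.5 TPM or more in 4 or more samples). NCI-H295R is a human adrenocortical carcinoma line that makes cortisol. The 3 groups of 4 samples differed in what the cells received for 24 h, namely the solvent alone (VEH, 0.1% DMSO), CJ28 or metyrapone (MET), the compounds at 30 µM each. All groups had spent the preceding 12 h without serum and were treated in serum-free medium. CJ28 is a benzimidazolylurea studied as an inhibitor of cortisol production, and metyrapone inhibits 11β-hydroxylase, the last enzyme on the way to cortisol. TPM expresses a transcript's length-corrected abundance relative to everything else in its library, so levels of different genes may be set side by side, while the number of reads behind a value is not known from the table.

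Cholesterol is the precursor of all steroid hormones, and adrenocortical cells obtain it from lipoproteins, from stored esters and by their own synthesis. The genes of cholesterol synthesis are known targets of the SREBP transcription factors, which are held back in the endoplasmic reticulum when sterols are plentiful and move to the nucleus when sterols are scarce. LSS forms the ring system of lanosterol. CYP51A1, a cytochrome P450, removes the methyl group at C14, and TM7SF2 reduces the double bond that this leaves, a step that LBR also carries out. MSMO1, NSDHL and HSD17B7 act in turn to remove the methyl groups at C4. EBP moves a double bond within the ring system, SC5D adds a further one and DHCR7 reduces the one that EBP moved.

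In VEH all 8 adrenocortical marker genes examined (NR5A1, STAR, CYP11A1, CYP17A1, CYP21A2, HSD3B2, MC2R and INHA) had a mean of 0.5 TPM or more, and in CJ28 6 had. Their summed level was 272.0 to 282.7 TPM in VEH, 270.8 to 285.4 in MET and 109.2 to 116.9 in CJ28, where all 8 were called lower than in VEH. CYP17A1, the enzyme that opens the way to cortisol, had the largest decrease (log2 fold change -2.35). HSD3B2 had the next (-1.73), at low means of 0.86 TPM in VEH and 0.19 in CJ28. The 15 markers of leukocytes, endothelium, fibroblasts, chromaffin cells and hepatocytes together reached 1.72 to 2.59 TPM in VEH, 1.13 to 1.64 in CJ28 and 1.75 to 2.34 in MET, and 3, 3 and 5 of them were listed at 0 in every sample of the group. In VEH 2 of the 15 had a mean of 0.5 TPM or more, CHGA (0.81 TPM) and COL1A1 (0.65 TPM), near the level of HSD3B2. CHGA, the only one of the 15 that passed the filter, had a log2 fold change of -0.51 with CJ28. The share held by nuclear protein-coding genes was 24.3% to 24.8% in VEH, 24.1% to 24.6% in MET and 21.3% to 21.4% in CJ28, and RN7SL1 and RN7SL2, RNAs of the signal recognition particle, held 29.7% to 32.7%, 31.4% to 32.9% and 36.0% to 38.2%. The part of these differences in the results was tested only through the scalings given below. Since TPM is relative, the median of all genes tested is given below for comparison. The percentages, fold changes and calls below were not corrected for it and use TPM as deposited, unless a scaling is named. From bulk RNA, fewer cells of one kind and less RNA per cell cannot be told apart.

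With CJ28, 8 of these 9 genes fell, by 43.9% (SC5D) to 69.6% (LSS) in mean TPM, whereas TM7SF2 was not called. With MET none of the 9 passed the same test. The counts come from limma on log2(TPM + 0.1) with Benjamini-Hochberg adjustment over all 16815 genes tested, a gene being called at an adjusted p under 0.05. In the same comparison of CJ28 with VEH, 37.1% of all genes tested were called lower, which was 65.1% of all calls (47.4% after median-of-ratios scaling and 40.1% after scaling to nuclear protein-coding genes). The 9 genes had a median log2 fold change of -1.22, against -0.13 over all genes tested.

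**Figure D1:**
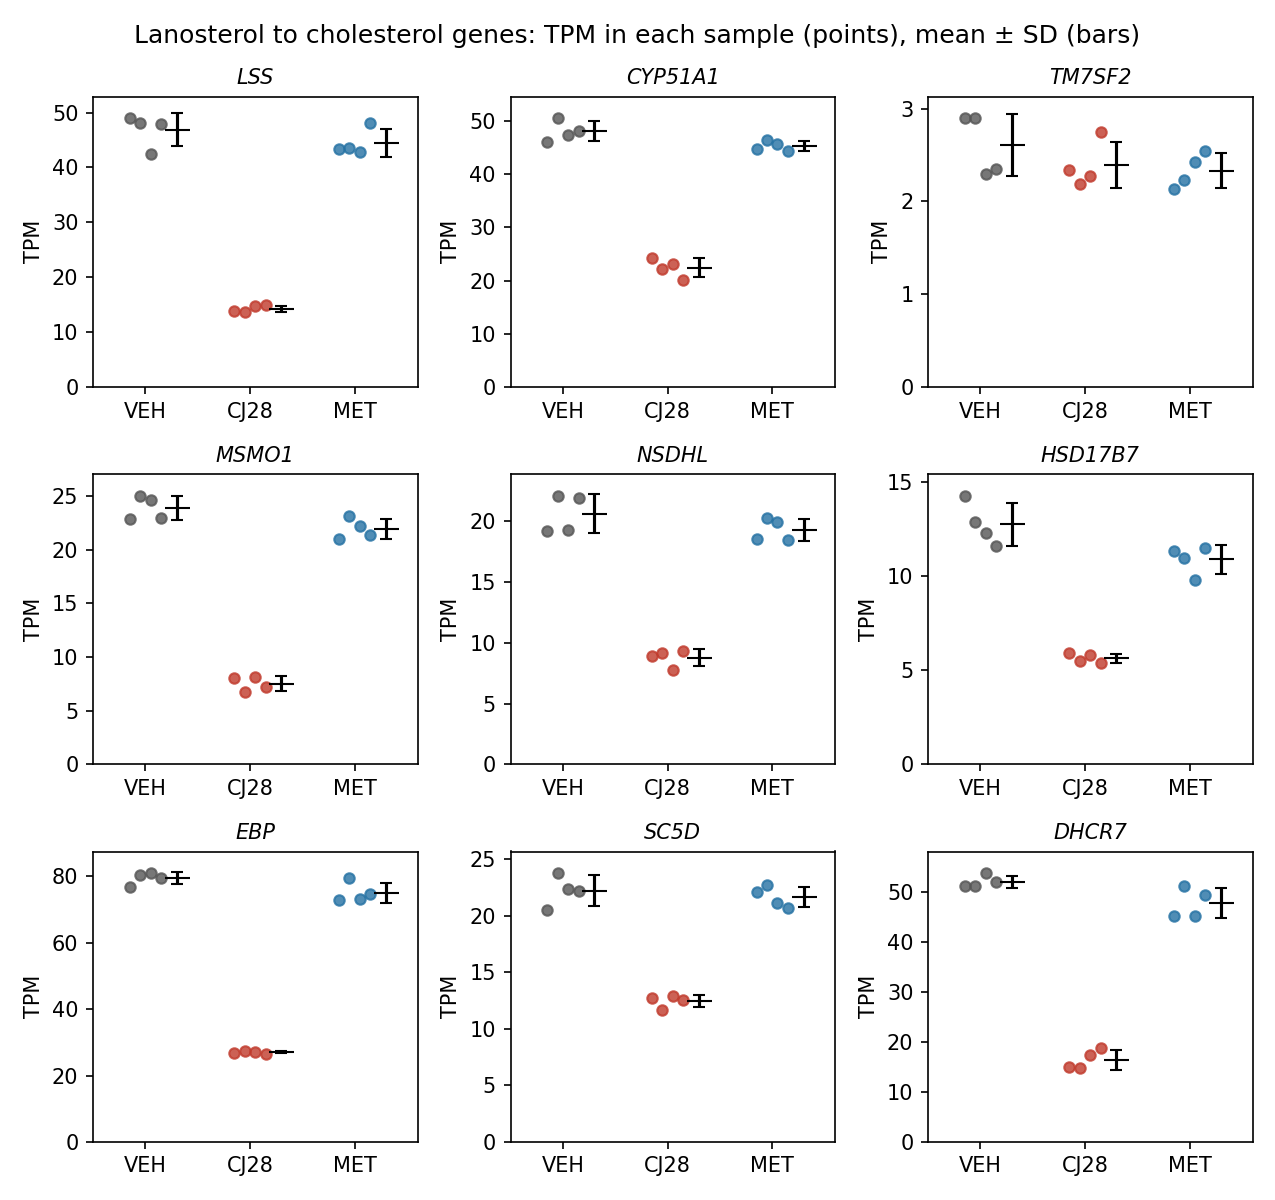
TPM (linear axis from 0, a separate scale for each gene) of the 9 genes in each of the 12 samples, with group mean ± SD beside the points. The CJ28 points of 8 genes lie below all VEH and MET points, while the points of TM7SF2 overlap between all 3 groups.

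RefSeq (GRCh38.p14) gave 11 promoters for the 9 genes, 2 each for SC5D and DHCR7 and 1 for each other gene, and the 250 bases before each start were searched on both strands for 3 motifs linked to sterol genes. These were TCACNCCAC, a form of the sterol regulatory element that SREBP binds, CCAAT, which NF-Y binds, and GGGCGG, the GC box that SP factors bind. TCACNCCAC was found in 0 of the 11 promoters and in 0.883% of all 35116 promoters in the table. With so rare a motif, 0 of 11 does not tell these promoters apart from all promoters. Other forms of the element and bases outside these windows were not searched. Whether these genes lack SREBP sites was therefore not tested. CCAAT was found in 9 of the 11 (not in that of CYP51A1 and 1 of DHCR7) and in 32.0% of all promoters, and GGGCGG in 9 of the 11 (not in that of NSDHL and the same one of DHCR7) and in 42.6%. The 2 windows of SC5D overlap, and their CCAAT match is the same site, counted in both. By gene, 8 of the 9 held CCAAT and 8 of the 9 held GGGCGG. TM7SF2, which was not called with CJ28, held both. Promoters of 3 genes are shown with motif matches in capitals, 5′ to 3′ on the strand of the gene, namely those of MSMO1 and EBP, which fell, and that of TM7SF2, which was not called. They were chosen after the values were seen, from promoters whose start lies close to the start of the gene in the TPM table. That of HSD17B7, which is not shown, also lies close. The MSMO1 window is chr4:165327419-165327668, that of EBP chrX:48521558-48521807 and that of TM7SF2 chr11:65111622-65111871, all on the plus strand.
MSMO1: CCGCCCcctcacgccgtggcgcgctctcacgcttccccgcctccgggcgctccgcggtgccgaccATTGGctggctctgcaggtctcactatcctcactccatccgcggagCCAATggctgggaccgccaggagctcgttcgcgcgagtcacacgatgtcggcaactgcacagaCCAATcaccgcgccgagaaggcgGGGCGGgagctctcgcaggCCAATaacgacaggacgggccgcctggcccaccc
EBP: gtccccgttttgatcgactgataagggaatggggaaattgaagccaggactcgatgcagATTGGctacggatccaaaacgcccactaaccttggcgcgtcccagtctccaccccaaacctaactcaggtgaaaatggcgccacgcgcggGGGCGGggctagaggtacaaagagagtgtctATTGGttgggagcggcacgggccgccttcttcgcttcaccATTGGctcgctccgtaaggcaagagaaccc
TM7SF2: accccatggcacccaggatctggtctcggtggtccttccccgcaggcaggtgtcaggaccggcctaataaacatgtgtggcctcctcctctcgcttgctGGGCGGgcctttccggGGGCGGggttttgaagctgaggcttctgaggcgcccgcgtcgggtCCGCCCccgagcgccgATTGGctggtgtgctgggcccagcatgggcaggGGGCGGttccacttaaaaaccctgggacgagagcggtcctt

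The MSMO1 promoter held 4 CCAAT boxes and 2 GC boxes, the EBP promoter 3 and 1, and the TM7SF2 promoter 1 and 4. The promoter of LSS, the gene with the largest decrease, held 1 CCAAT box and 6 GC boxes, so neither count separated the lowered genes from TM7SF2.

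LSS (ENSG00000160285.15, chromosome 21, 46188141 to 46228824, GRCh38) showed the largest decrease of the 9. Its 4 VEH samples held 49.01, 48.11, 42.38 and 47.95 TPM, its CJ28 samples 13.76, 13.64, 14.66 and 14.84, and its MET samples 43.30, 43.57, 42.74 and 48.14. Every CJ28 sample lay far below the other 8, and the MET and VEH samples overlapped. With CJ28 its log2 fold change was -1.71 (standard error 0.054, adjusted p = 7.6e-11 in limma), which placed LSS 210th from the lowest of the 16815 genes. A long noncoding RNA on the opposite strand within LSS, AP001469.1, had a mean of 1.06 TPM in VEH and 0.260 in CJ28. The libraries were stranded, but whether the counting used the strand is not given in the sources used here.

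CYP51A1 (ENSG00000001630.17, chromosome 7, 92112153 to 92134803) encodes the only cytochrome P450 among the 9. It held 46.16, 50.59, 47.35 and 48.19 TPM in VEH, 24.25, 22.22, 23.10 and 20.16 in CJ28, and 44.79, 46.46, 45.65 and 44.46 in MET. CJ28 samples did not overlap with either of the other groups. The log2 fold change for CJ28 was -1.10 (standard error 0.051, adjusted p = 2.3e-09 in limma), a smaller decrease than that of LSS, and the 95% confidence intervals of the 2 genes (-1.21 to -0.99 and -1.83 to -1.59) did not overlap. Its 3 processed pseudogenes CYP51A1P1, CYP51A1P2 and CYP51A1P3 did not exceed 0.47 TPM in any sample. The overlapping gene AC000120.4 on the same strand, with which reads could be shared, had 0.42 to 1.89 TPM over all samples. AC000120.3, also on the same strand and overlapping 22645 bases of CYP51A1, did not exceed 0.20 TPM in any sample.

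TM7SF2 (ENSG00000149809.16, chromosome 11, 65111845 to 65116408) was the exception. Its TPM was 2.90, 2.90, 2.30 and 2.35 in VEH, 2.34, 2.19, 2.28 and 2.75 in CJ28, and 2.13, 2.23, 2.43 and 2.54 in MET, so that all 3 groups overlapped. Its log2 fold change with CJ28 was -0.12 (95% confidence interval -0.34 to 0.10, adjusted p = 0.342 in limma), close to the median of all genes tested, and turned positive, 0.03 and 0.08, under the scalings by median of ratios and by nuclear protein-coding genes. It was also the least expressed of the 9 genes and, with a coefficient of variation of 12.7% in VEH, the most variable there. A change of a size within that interval was not excluded. The same scalings moved the median of all genes from -0.13 to 0.01 and 0.09. TM7SF2 shares 18 bases at its start with the end of VPS51 on the same strand and 6 bases at its end with ZNHIT2 on the opposite strand. Mean TPM of VPS51 was 9.59 in VEH and 11.2 in CJ28, and that of ZNHIT2 was 3.54 and 5.18.

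LBR, whose product catalyses the same reduction, was present at 19.0 ± 1.11 TPM in VEH (SD, n = 4), above TM7SF2, and fell to 9.75 ± 0.484 in CJ28 (log2 fold change -0.96, adjusted p = 1.7e-08 in limma). The sum of TM7SF2 and LBR was 20.3 to 22.9 TPM in VEH and 11.4 to 13.2 in CJ28, and the groups did not overlap (p = 0.0286 in a two-sided exact permutation test, which can give no smaller value with 4 samples a side). TM7SF2 made up 12.1% ± 1.71 of that sum in VEH (SD, n = 4), 11.2% ± 0.693 in MET and 19.6% ± 0.895 in CJ28. Its share was thus higher in every CJ28 sample (18.9% to 20.9%) than in any VEH sample (10.7% to 14.3%), while the sum fell.

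The 3 genes of C4 demethylation all fell with CJ28. MSMO1 (ENSG00000052802.13, chromosome 4, 165327667 to 165343164), the oxidase of this step, held 22.86, 25.05, 24.60 and 22.98 TPM in VEH, 8.03, 6.75, 8.13 and 7.19 in CJ28, and 20.99, 23.11, 22.18 and 21.35 in MET. Its log2 fold change for CJ28 was -1.66 (standard error 0.062, adjusted p = 3.0e-10 in limma), in the range of LSS. NSDHL (ENSG00000147383.11, chromosome X, 152830967 to 152869729), the decarboxylating dehydrogenase, held 19.16, 22.12, 19.27 and 21.93 TPM in VEH, 8.94, 9.17, 7.74 and 9.29 in CJ28, and 18.54, 20.24, 19.92 and 18.42 in MET. Its log2 fold change for CJ28 was -1.22 (standard error 0.069, adjusted p = 1.4e-08 in limma). In both genes the CJ28 samples lay below the other 8 without overlap, and MET overlapped with VEH.

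HSD17B7 (ENSG00000132196.14, chromosome 1, 162790702 to 162812817) encodes the ketosteroid reductase that ends the C4 step. It held 14.30, 12.89, 12.29 and 11.61 TPM in VEH, 5.90, 5.51, 5.81 and 5.40 in CJ28, and 11.36, 10.96, 9.82 and 11.50 in MET. Its CJ28 samples were lowest, and its MET samples, between the other groups, overlapped with neither. The log2 fold change for CJ28 was -1.16 (standard error 0.069, adjusted p = 2.3e-08 in limma). Reads could be shared with the unprocessed pseudogene HSD17B7P2 on chromosome 10, whose mean TPM was 1.79 in VEH, against 1.37 with CJ28 and 1.94 with MET. The sum of HSD17B7 and HSD17B7P2 was 14.6 ± 1.33 TPM in VEH (SD, n = 4), 7.03 ± 0.214 in CJ28 and 12.9 ± 0.669 in MET. CJ28 still did not overlap with VEH in the sum (exact permutation test, p = 0.0286), whereas MET did (exact permutation test, p = 0.0857). HSD17B7P1 was listed at 0 in all samples.

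EBP (ENSG00000147155.11, chromosome X, 48521799 to 48528716), the sterol isomerase, was the most abundant of the 9 in every group. It held 76.87, 80.53, 80.98 and 79.50 TPM in VEH, 26.84, 27.38, 27.07 and 26.58 in CJ28, and 72.87, 79.36, 73.01 and 74.68 in MET. The CJ28 samples lay close together, from 26.58 to 27.38 TPM, and far below the rest, while MET overlapped with VEH. The log2 fold change for CJ28 was -1.56 (standard error 0.033, adjusted p = 2.5e-12 in limma), the smallest adjusted p of the 9 genes. AF196969.1 and AF196972.2, which overlap EBP on the same strand, did not exceed 0.25 TPM in any sample.

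SC5D (ENSG00000109929.10, chromosome 11, 121292681 to 121313410), the desaturase, showed the smallest decrease among the 8 genes called. It held 20.47, 23.78, 22.34 and 22.23 TPM in VEH, 12.72, 11.68, 12.88 and 12.54 in CJ28, and 22.07, 22.74, 21.17 and 20.68 in MET. The log2 fold change for CJ28 was -0.83 (standard error 0.051, adjusted p = 3.4e-08 in limma). Its 95% confidence interval, -0.94 to -0.72, did not overlap with that of any other gene called.

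DHCR7 (ENSG00000172893.15, chromosome 11, 71428193 to 71452868), the reductase that acts after SC5D, held 51.19, 51.13, 53.74 and 52.02 TPM in VEH, 14.95, 14.69, 17.30 and 18.79 in CJ28, and 45.17, 51.12, 45.16 and 49.29 in MET. Its log2 fold change for CJ28 was -1.66 (standard error 0.073, adjusted p = 1.4e-09 in limma), about the same as MSMO1. In SC5D and DHCR7 alike the CJ28 samples lay below the other 8, and for SC5D the MET and VEH samples overlapped. Consecutive enzymes of the pathway thus belonged to the most and to the least lowered of the genes called.

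Among the genes called, the decreases with CJ28 fell into separate ranges, which were drawn after the values were seen. LSS, DHCR7, MSMO1 and EBP had log2 fold changes of -1.71 to -1.56 and overlapping intervals, all of them below the intervals of NSDHL, HSD17B7 and CYP51A1, whose values were -1.22 to -1.10. SC5D stood above both. The order did not follow the order of the steps.

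**Figure D2:**
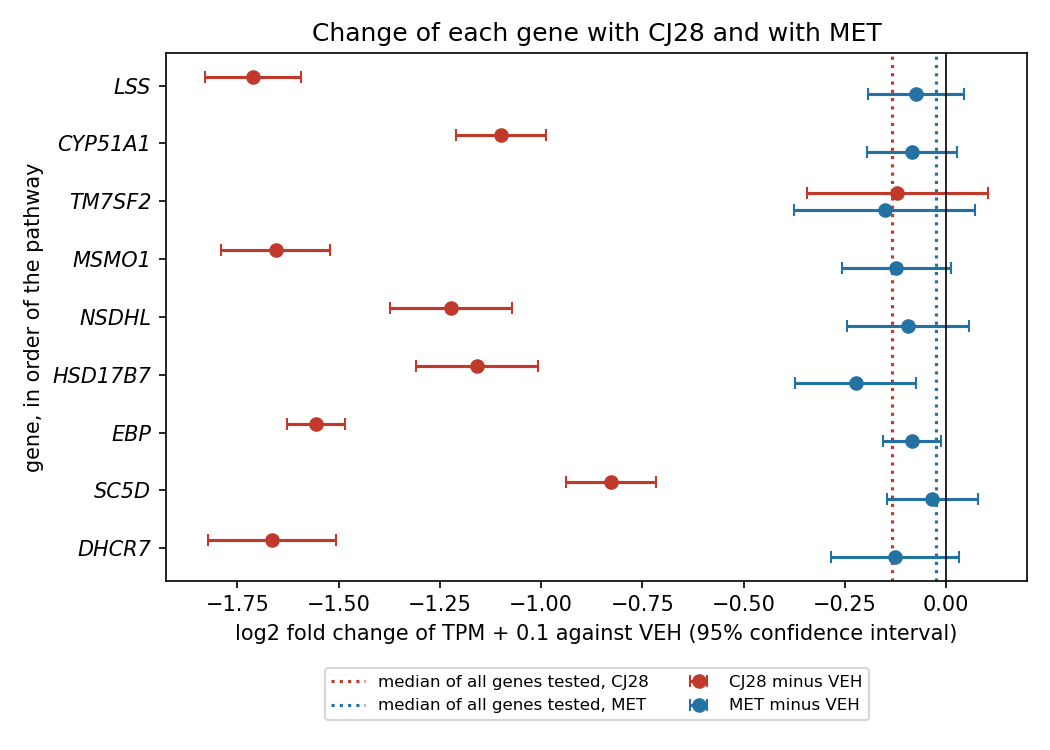
Log2 fold change of TPM + 0.1 against VEH with its 95% confidence interval from limma, for CJ28 (red) and MET (blue), with genes in the order of the pathway and dotted lines at the median of all genes tested. With CJ28 the points run from -1.71 (LSS) to -0.83 (SC5D), apart from TM7SF2 at -0.12, and with MET all points lie between -0.22 and -0.03.

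No overlap between CJ28 and VEH was seen for 8 of the 9 genes (p = 0.0286 for each in the two-sided exact permutation test), all 8 lower in CJ28. Among all genes tested, 32.7% had all 4 CJ28 values below all 4 VEH values. Over the 9 genes, between 1.24% (LSS) and 51.1% (TM7SF2) of all genes tested had a lower log2 fold change than the gene itself. For the 8 genes called, this share was at most 10.5% (SC5D), and for LSS, MSMO1, EBP and DHCR7 it was under that of the other 4.

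Between MET and VEH differences were small. All 9 genes had a lower mean in MET, with log2 fold changes of -0.22 (HSD17B7) to -0.03 (SC5D) and a median of -0.09, while the median of all genes tested was -0.03 and 61.1% of them lay below 0. In limma 0 of the 9 genes were called (smallest adjusted p = 0.933), and 2 had an unadjusted p under 0.05, HSD17B7 and EBP. Among all genes tested, 0.00595% (1 gene) were called lower, and 874 had an unadjusted p under 0.05. HSD17B7 and DHCR7 were lower in every MET sample than in every VEH sample (two-sided exact permutation test, p = 0.0286 for each), against 2.03% of all genes tested. For DHCR7 this rested on a gap between 51.12 TPM, the highest MET value, and 51.13 TPM, the lowest VEH value. The 95% confidence intervals of the 9 genes together reached from -0.38 (TM7SF2) to 0.08 (SC5D), so that decreases of the size seen with CJ28 in the other 8 genes lay outside them.

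At the same dose and time, CJ28 and MET differed in 8 of the 9 genes in limma, all lower in CJ28 (largest adjusted p = 1.8e-07, HSD17B7), while 34.6% of all genes tested were called lower. The 2 compounds thus differed in these genes by log2 fold changes of -1.64 (LSS) to -0.79 (SC5D). For TM7SF2 the difference was 0.03, with a 95% confidence interval of -0.19 to 0.26 and an adjusted p of 0.813 in limma. It was 0.15 after median-of-ratios scaling and 0.22 after scaling to nuclear protein-coding genes, and was not called under either (smallest adjusted p over all alternatives 0.0868 in limma). The samples of CJ28 and MET did not overlap for the same 8 genes (exact permutation test, p = 0.0286 for each), against 31.3% of all genes tested with every CJ28 sample below every MET sample. The comparisons of each compound with VEH share the VEH samples, and their values are given side by side without a further test.

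Levels of the 9 genes spanned a wide range in VEH. EBP had 79.5 ± 1.84 TPM (SD, n = 4), followed by DHCR7 with 52.0 ± 1.22, CYP51A1 with 48.1 ± 1.87 and LSS with 46.9 ± 3.02. CYP51A1 and LSS overlapped, and their order turned when VEH-3 was left out. MSMO1 (23.9 ± 1.12), SC5D (22.2 ± 1.36) and NSDHL (20.6 ± 1.62) came next, each overlapping with its neighbour. HSD17B7 (12.8 ± 1.14) and TM7SF2 (2.61 ± 0.333) were lowest and overlapped with no neighbour. Among the 19944 nuclear protein-coding genes of the table, 97.6% had a lower mean than EBP in VEH, 79.8% a lower mean than HSD17B7 and 52.7% a lower mean than TM7SF2.

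In CJ28 the order changed. CYP51A1 (22.4 ± 1.73 TPM, SD, n = 4) stood above DHCR7 (16.4 ± 1.96) without overlap, and SC5D (12.5 ± 0.535) and NSDHL (8.79 ± 0.712) came before MSMO1 (7.53 ± 0.667), with NSDHL and MSMO1 overlapping. EBP stayed first and TM7SF2 last. In MET the order was that of VEH, although DHCR7 and CYP51A1 overlapped there, as did CYP51A1 and LSS, and MSMO1 and SC5D changed places when MET-3 was left out.

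The summed TPM of the 9 genes was 308.5 ± 6.21 in VEH (SD, n = 4), 288.5 ± 8.72 in MET and 116.9 ± 2.51 in CJ28. Each gene's share in that sum does not depend on how a library is scaled. TM7SF2 rose from 0.847% ± 0.105 of the sum in VEH to 2.04% ± 0.199 in CJ28, SC5D from 7.19% ± 0.316 to 10.7% ± 0.236, and CYP51A1 from 15.6% ± 0.295 to 19.2% ± 1.46. The shares of LSS (15.2% ± 0.966 in VEH and 12.2% ± 0.399 in CJ28), DHCR7 (16.9% ± 0.605 and 14.05% ± 1.52), EBP (25.8% ± 0.539 and 23.1% ± 0.734) and MSMO1 (7.74% ± 0.290 and 6.43% ± 0.459) fell, without overlap between the groups. The shares of NSDHL and HSD17B7 overlapped between VEH and CJ28. Within a sample, the log2 ratio of TM7SF2 to the mean of the other 8 genes was -3.80 to -3.47 in VEH, -3.82 to -3.58 in MET and -2.50 to -2.21 in CJ28.

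**Figure D3:**
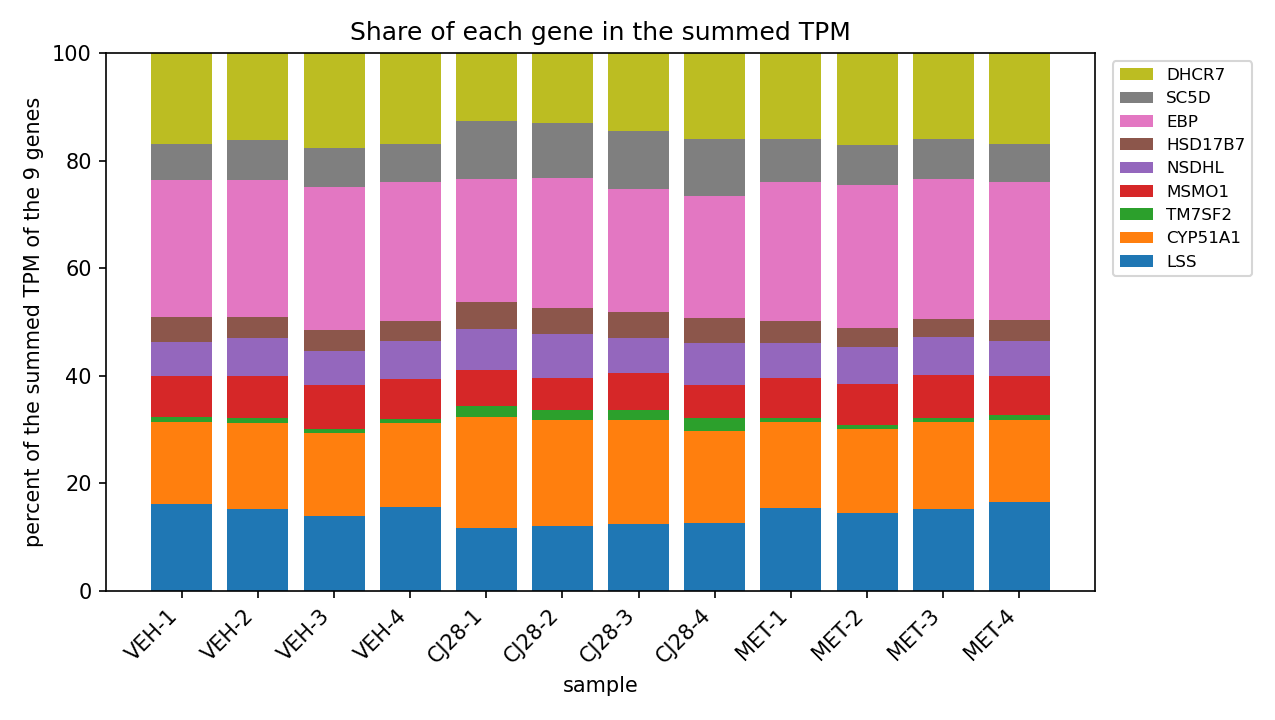
Share of each of the 9 genes in their summed TPM (percent, vertical axis) in each of the 12 samples. The 4 CJ28 columns show wider bands of CYP51A1, SC5D and TM7SF2 and narrower bands of LSS, MSMO1, EBP and DHCR7 than the VEH columns.

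Outside the 9 genes, the late arm was represented by LBR and ERG28, and both fell with CJ28. ERG28, which holds the C4 demethylation enzymes together, had 7.81 ± 0.359 TPM in VEH and 2.84 ± 0.0440 in CJ28 (log2 fold change -1.43). With MET the log2 fold changes of LBR and ERG28 were -0.04 and -0.02, and neither was called.

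Of 9 genes examined from acetyl-CoA to squalene epoxide (ACAT2, HMGCS1, MVK, PMVK, MVD, IDI1, FDPS, FDFT1 and SQLE), 9 fell with CJ28 and 0 were called with MET. Their median log2 fold change with CJ28 was -1.69, against -1.22 for the 9 late genes, with the largest decreases for HMGCS1 (-1.94), the synthase that supplies HMG-CoA, and MVK (-1.91), mevalonate kinase. PMVK, phosphomevalonate kinase, had the smallest (-0.31), which was no longer called under either scaling (-0.16 and -0.10), leaving 8 of the 9.

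**Figure D4:**
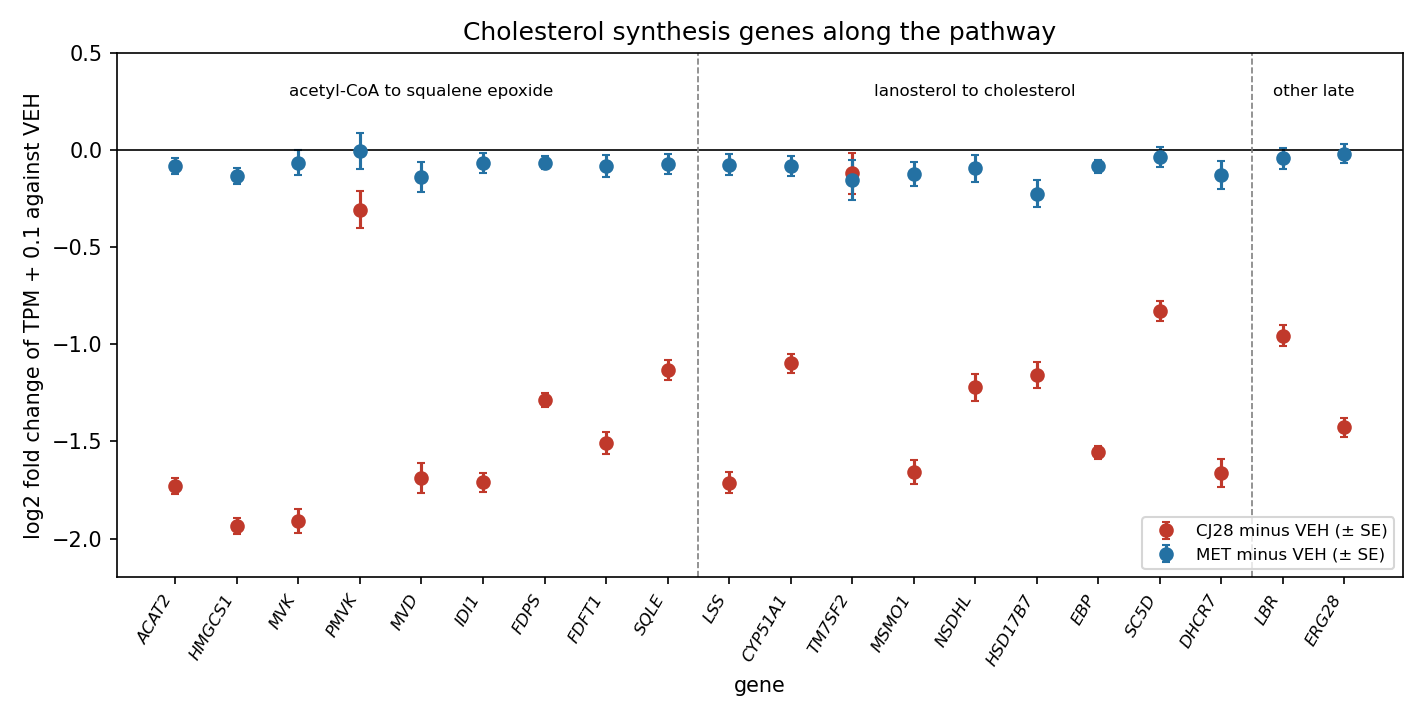
Log2 fold change of TPM + 0.1 against VEH (vertical axis, ± standard error from limma) for 20 genes of cholesterol synthesis, with dashed lines between 9 early genes, the 9 lanosterol to cholesterol genes and 2 other late genes. The CJ28 points (red) of all but TM7SF2 and PMVK lie at -0.83 or lower, and the MET points (blue) stay near 0.

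Several of these enzymes need electrons passed on by other proteins. For this, 5 genes of electron donors and partner proteins were examined. CYB5R3 (cytochrome b5 reductase, log2 fold change -0.93), PGRMC1 (a haem protein that binds P450 enzymes, -0.996) and CYB5A (cytochrome b5, -0.30) fell with CJ28. POR, the reductase that supplies CYP51A1, had -0.08 (95% confidence interval -0.21 to 0.04) and CYB5B -0.07 (-0.20 to 0.07), and neither was called. Scaled to nuclear protein-coding genes, CYB5A was no longer called (-0.09), CYB5B was called higher (0.14) and POR had 0.12. Of 9 genes of SREBP control and sterol uptake, 7 fell with CJ28 (6 under either scaling, without INSIG2). The largest decreases were those of SREBF1 (-4.25), which encodes an SREBP factor, and INSIG1 (-2.23), which retains SREBP in the endoplasmic reticulum. SREBF2, which encodes a further SREBP factor, fell less (-1.07, adjusted p = 7.1e-06 in limma). None of these 14 genes was called with MET.

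The profile most like the mean of the 9 genes was sought among 13297 other genes with a mean of at least 1 TPM, by the root mean square difference of log2 values centred on VEH over the 12 samples. The nearest were METTL7A (0.040), ALDOC (0.061), ZWINT (0.062), MLLT11 (0.063) and KIF11 (0.064), with mean changes of -1.29 to -1.19 in CJ28. Taken one by one, LSS was nearest to TMEM97 (0.069), EBP to TUBA1A (0.052), SC5D to RBBP7 (0.043), DHCR7 to MARCKSL1 (0.10), CYP51A1 to NUDT3 (0.051), NSDHL to ATAD5 (0.069), HSD17B7 to GPR75 (0.10) and TM7SF2 to GNPTG (0.079). Of the 9 genes themselves, NSDHL was closest to the mean profile (0.090, 48th of 13306 genes) and TM7SF2 farthest (0.646, 6216th).

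**Figure D5:**
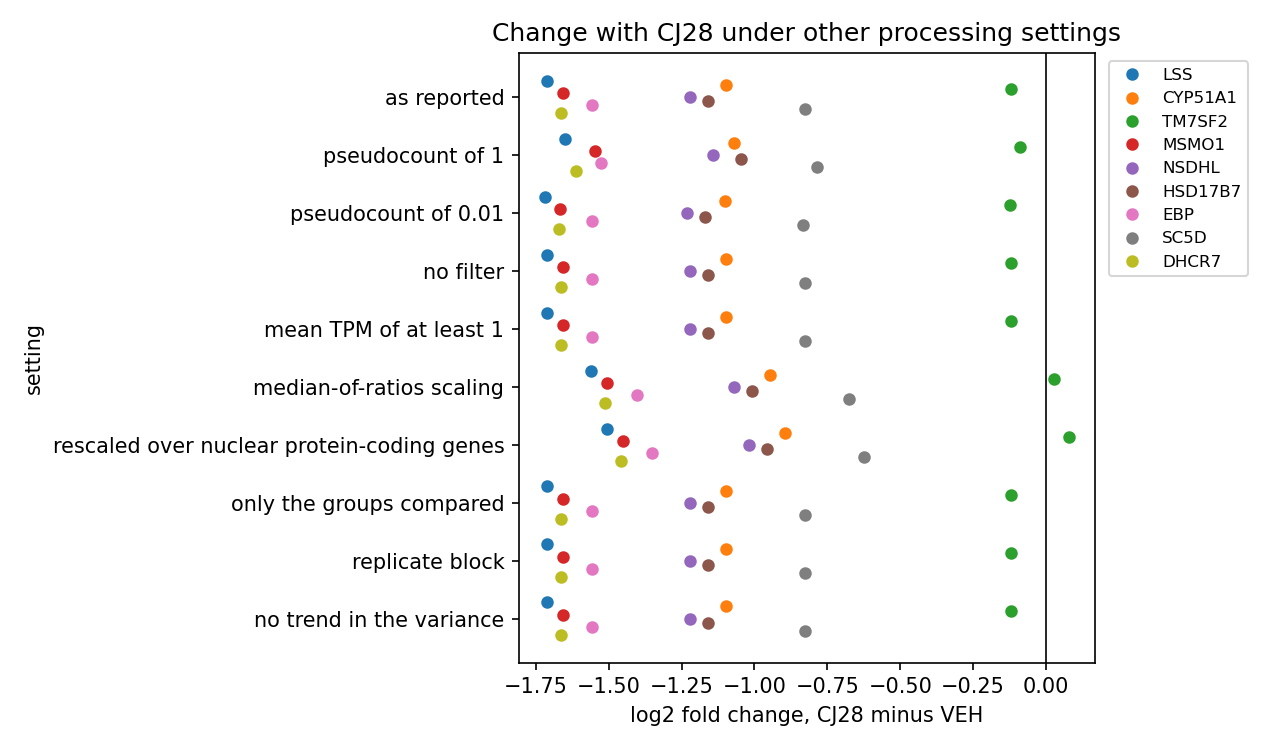
Log2 fold change for CJ28 against VEH (horizontal axis) of the 9 genes under the reported setting and 9 other ways of processing the TPM values. The 2 scalings shift all genes to the right by about the same amount, which carries TM7SF2 across 0 to 0.03 and 0.08, and the other 8 stay below -0.60 throughout.

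For the 9 genes, scaling changed the size of the decreases and none of the calls. The 8 genes called had log2 fold changes after median-of-ratios scaling between -1.56 (LSS) and -0.68 (SC5D), and after scaling to nuclear protein-coding genes between -1.51 and -0.62. The number called lower was 8 under every setting tried.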

How the data were processed

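Stranded libraries of total RNA without ribosomal RNA came from 12 samples of NCI-H295R cells. The authors trimmed reads with Cutadapt (version 2.8), mapped them to GRCh38 with STAR (version 2.7.10b) and deposited gene-level TPM from RSEM (version 1.3.3), given to 2 decimals. Reads with several possible genes are apportioned by RSEM. TPM sums to the same total in every sample and keeps no depth, so no count model, counting error or detection limit could be had.

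Genes with 0.5 TPM or more in 4 or more samples (16815) entered a limma fit of log2(TPM + 0.1) over all 12 samples, with variance trend and no covariates (limma 3.58.1 in R 4.3.3), and p-values were two-sided and adjusted by the Benjamini-Hochberg method. The study itself tested counts with DESeq2, and counts were not used here. Single genes were compared by two-sided exact permutation tests of mean TPM. The fit was tested on simulated data in which few genes changed, equally often up and down. That setting differs from CJ28 against VEH, where many genes were called and more of them lower, so it does not cover this case. Fold changes on this scale are understated at low TPM. No samples were identical, and nothing states that they came from separate cultures, so p-values measure the spread between these samples, which may be technical.

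Groups came from sample titles. The genes, the other lists and the rule for named genes (all 9 genes, the 2 largest changes with CJ28 in each other list, the nearest profiles and pseudogenes of at least 0.5 TPM) were chosen with earlier results of these data known. The remaining genes with values were named after these were seen. Some genes of the other lists, and results that need them, are not reported here. Alternatives were pseudocounts of 1 and 0.01, no filter, a filter on mean TPM (1 or more), scaling by median of ratios or to nuclear protein-coding genes, fits of 2 groups alone, a replicate block, a fit without variance trend, and each sample left out in turn.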

Additional observations from a re-analysis of the deposited data

Results flagged for a closer look

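LSS had 1 sample apart from the other 3 of its group in 2 of the 27 sets of 4 values formed by 9 genes and 3 groups. In VEH, replicate 3 had 42.38 TPM, and the gap to the next sample was 0.840 of the range of the group. In MET, replicate 4 had 48.14 TPM, with a gap of 0.846 of the range. Chance alone flags about 1 in 20 such sets. Both samples lay far above the CJ28 samples of LSS. When single samples were left out, the log2 fold change of LSS ranged from -1.76 to -1.69 for CJ28 and from -0.12 to -0.05 for MET against VEH.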

How the results depend on the processing

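The number of the 9 genes called was 8 for CJ28 against VEH, 0 for MET against VEH and 8 for CJ28 against MET under all 21 alternatives. All 8 genes called stayed below 0 in each. TM7SF2, which was never called, changed sign for CJ28 against VEH under both scalings, to 0.026 (median of ratios) and 0.077 (nuclear protein-coding genes), as scaling by construction shifts all genes. For CJ28 against MET its log2 fold change of 0.03 ranged from -0.035 (without CJ28 replicate 4) to 0.072 (without MET replicate 4) when single samples were left out, and was -0.0090 without MET replicate 1, 0.15 after median-of-ratios scaling and 0.22 after scaling to nuclear protein-coding genes. Over all genes, the 1 gene called for MET against VEH, H4C12, compares with 0 genes with pseudocounts of 1 and 0.01 and with a mean TPM of at least 1, with 5 without a filter, and with 1 to 2 when single samples were left out (2 without VEH replicate 4 and 2 without MET replicate 4). The share of lower genes among those called for CJ28 against MET was 62.3% as deposited, 47.7% after median-of-ratios scaling and 38.6% after scaling to nuclear protein-coding genes.

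Whether equal replicate numbers mark paired samples is not given, and weak correlations among 4 samples a group cannot exclude it. For equal numbers, correlations of deviations from group means were 0.0040 to 0.039 for CJ28 and VEH and -0.063 to 0.021 for MET and VEH. For CJ28 and MET they were -0.12 to -0.0077. In the order given, 2 of 4, 0 of 4 and 0 of 4 samples correlated best with their own number. For CJ28 and VEH the mean was 0.024 for equal numbers and -0.0079 for other pairs. With the replicate block 8, 0 and 8 of the 9 genes were called, and 9546, 1 and 9361 of all genes. Shares in the summed TPM moved by less than 1 SD when single samples were left out. This must hold for any set of 4 values, so it is no check of the shares. The TPM table holds no read numbers, so the counting error of TM7SF2, the lowest of the 9 genes, was not computed.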
